A study of Mus musculus with 5 samples.

Results

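The adenylyl cyclases described here are the 9 membrane-bound members of the family, Adcy1 to Adcy9, among the 22911 genes that the arrays could name. They were measured by 13 of 56605 probes on each of 5 whole-colon arrays. The family was chosen by measured values of these same arrays, namely which members the colon expresses and how they stood in NT-3N against Control, so its own values in that contrast are given as a description and carry no p-value. Of the 9 genes, 8 were measured by probes that were all well above background on all 5 arrays, and Adcy8 was not.

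The arrays held Cy3-labelled RNA from colon tissue of wild-type C57BL/B6 mice, 1 mouse an array. The Control group had 2 untreated mice. The NT-3N group had 3 mice, 8 weeks old, which received NT-3N, which activates the IL-11 receptor, by intravenous injection, and their colon was taken 3 hr later. The comparison asks which genes respond to IL-11 in the colon. Since the Control mice were not injected, effects of the agonist and of the injection itself cannot be told apart. The sex of the mice and the age of the Control mice are not given in the sources used here. The best-known signal of IL-11, a cytokine of the IL-6 family, runs from its receptor and gp130 to STAT3.

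Adenylyl cyclases sit in the plasma membrane and turn ATP into cyclic AMP (cAMP). Receptors coupled to the G protein Gs switch them on, receptors coupled to Gi switch several of them off, phosphodiesterases destroy the cAMP, and protein kinase A and a few other sensors read it. In the gut, cAMP relaxes smooth muscle and drives chloride and fluid secretion by the epithelium, which is how cholera toxin causes diarrhoea. The members differ in what controls them: Adcy1, Adcy3 and Adcy8 are stimulated by calcium and calmodulin, Adcy2, Adcy4 and Adcy7 by G protein beta-gamma subunits, Adcy5 and Adcy6 are inhibited by calcium and by Gi, and Adcy9 stands apart as the form least sensitive to forskolin.

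Adcy5 was the member with the largest difference between the groups, at close to 1 log2 unit lower in NT-3N. Adcy9 was lower by less, and Adcy4 was slightly higher. These were the 3 members whose NT-3N arrays did not overlap the Control arrays, and the sequences before their transcription starts are therefore shown. Each runs 5′ to 3′ over the 250 bases before the start in the RefSeq annotation of GRCm38.p6. Capitals mark a GC box, the letters GGGCGG on either strand, to which Sp1-type factors are known to bind. Adcy4 lies on the minus strand at chr14:55784073-55784322, Adcy5 on the plus strand at chr16:35154614-35154863 and Adcy9 on the minus strand at chr16:4420499-4420748.
Adcy4: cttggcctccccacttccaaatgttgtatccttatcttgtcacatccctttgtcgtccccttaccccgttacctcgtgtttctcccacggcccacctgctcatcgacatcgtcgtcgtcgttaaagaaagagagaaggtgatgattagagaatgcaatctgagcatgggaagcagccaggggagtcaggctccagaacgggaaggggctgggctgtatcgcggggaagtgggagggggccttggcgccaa
Adcy5: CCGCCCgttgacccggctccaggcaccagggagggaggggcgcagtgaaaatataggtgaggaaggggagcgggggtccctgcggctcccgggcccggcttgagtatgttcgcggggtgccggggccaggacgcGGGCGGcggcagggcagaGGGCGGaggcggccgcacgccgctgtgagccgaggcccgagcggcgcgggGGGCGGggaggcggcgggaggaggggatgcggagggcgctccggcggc
Adcy9: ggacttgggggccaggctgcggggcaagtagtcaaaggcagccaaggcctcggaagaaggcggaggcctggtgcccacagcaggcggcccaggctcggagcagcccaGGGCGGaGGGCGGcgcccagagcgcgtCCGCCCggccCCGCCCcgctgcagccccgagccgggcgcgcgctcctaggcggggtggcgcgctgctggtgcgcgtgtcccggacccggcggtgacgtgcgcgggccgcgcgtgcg

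The stretches of Adcy5 and Adcy9 were made of 78% and 78.8% G and C and held 4 GC boxes each, whereas that of Adcy4 was 56% G and C and held none. Over the full RefSeq window of 300 bases, which adds 50 bases after the start, Adcy9 had 5 GC boxes and Adcy5 4. Of all 32544 windows of that length, 35.9% held a GC box. RefSeq windows were matched for 7 of the 9 members, with 2 windows for Adcy3, 3 for Adcy7 and 1 for each of the others. GC boxes were also found for Adcy1 (5), Adcy2 (3), Adcy3 (1) and Adcy7 (1). Another 4 motifs were searched on both strands. The cAMP response element TGACGTCA, held by 1.8% of all windows, and the TATA box TATAAA, held by 13.6%, were in no window of the 7 members. The STAT element TTCNNNGAA, held by 8.33%, was found once for Adcy3 and once for Adcy7, the members with more than 1 window. The E-box CACGTG, held by 7.17%, was found once for Adcy1. A match of letters is no evidence that a factor binds there.

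Across the array, 32917 features (a gene by its brightest probe, or an unnamed probe) passed the filter and were compared with limma. At an adjusted p under 0.05 this called 0.143% of them in either direction, 41 higher and 6 lower in NT-3N. Of the 8 cyclases that passed the filter 1 was called, Adcy5, but the same contrast chose the family, so nothing is read from that count. The call was lost whichever of the 5 arrays was left out, with 0 members called each time, while the difference of Adcy5 itself stayed between -1.02 and -0.90. NT-3N arrays all lay above both Control arrays for 13.5% of features and all below for 14.8%, against 1 and 2 of the 8 cyclases. The mean was higher in NT-3N for 2 members and lower for 6, with a median log2 difference of -0.14 beside -0.02 over all features.

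**Figure D1:**
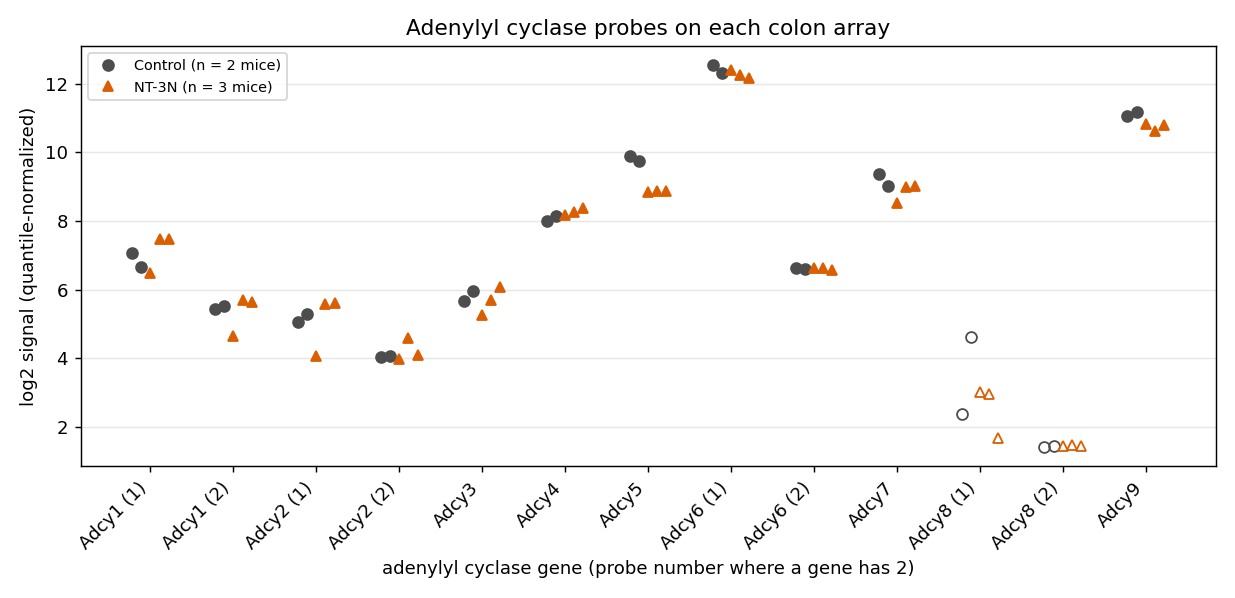
Log2 signal after quantile normalization (vertical axis) of each of the 13 adenylyl cyclase probes (horizontal axis) on each array. Each point is 1 mouse, circles stand for Control and triangles for NT-3N, and open symbols mark probes that did not pass the filter, which were those of Adcy8. Heights compare arrays within a probe and not genes, since probes differ in brightness for the same amount of RNA.

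Among the calcium-inhibited cyclases, Adcy5 is the major form of the striatum and, with Adcy6, of the heart. Its log2 signal was 9.89 and 9.76 on the Control arrays and 8.86, 8.87 and 8.88 on the NT-3N arrays. Both Control arrays were high and the 3 NT-3N arrays were nearly equal to each other. The means were 9.83 ± 0.094 (SD, n = 2) and 8.87 ± 0.0116 (SD, n = 3), a log2 difference of -0.96 with a standard error of 0.102. On a linear scale NT-3N stood at 51.5% of Control, which is 1.94-fold lower, and 1.05% of all features were as low or lower. Adcy5 was measured by 1 probe, so no other probe speaks to it.

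Adcy6 is the closest relative of Adcy5. Its brighter probe read 12.55 and 12.32 in Control and 12.42, 12.26 and 12.17 in NT-3N. The groups overlapped, with a log2 difference of -0.15 (SE 0.115). It was -0.04 with Control replicate 1 left out, -0.27 with Control replicate 2 and -0.10 with NT-3N replicate 3. The other Adcy6 probe stayed within 0.051 log2 units over all 5 arrays, with a difference of -0.01 (SE 0.135).

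Adcy9 is expressed in most tissues. Its log2 signal was 11.06 and 11.20 in Control and 10.83, 10.63 and 10.81 in NT-3N. All 3 NT-3N arrays lay below both Control arrays. The log2 difference was -0.37 (SE 0.106), or 77.2% of Control, from means of 11.13 ± 0.0928 (SD, n = 2) and 10.76 ± 0.111 (SD, n = 3).

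Of the cyclases that beta-gamma subunits stimulate, Adcy4 gave the values with the least spread. It read 7.99 and 8.15 in Control and 8.18, 8.25 and 8.37 in NT-3N. The NT-3N arrays all lay higher, though the lowest of them exceeded the higher Control array by little, and the log2 difference was 0.20 (SE 0.127), or 1.15-fold. Leaving out Control replicate 1 lowered it to 0.12. Adcy7, the form best known from immune cells and platelets, read 9.38 and 9.03 in Control and 8.52, 8.98 and 9.03 in NT-3N. Its low value was that of NT-3N replicate 1, and the groups overlapped, with a difference of -0.36 (SE 0.197) that became -0.20 when that array was left out and -0.18 when Control replicate 1 was. Adcy2, a form typical of neurons, read 5.07 and 5.30 in Control and 4.07, 5.58 and 5.62 in NT-3N. Here NT-3N replicate 1 lay lowest and the other NT-3N arrays highest, so the difference of -0.09 (SE 0.498) turned to 0.42 without that array. It was -0.21 and 0.02 with Control replicate 1 and 2 left out, and -0.34 and -0.35 with NT-3N replicate 2 and 3. The other Adcy2 probe was higher in NT-3N by 0.16 (SE 0.313), also with overlap.

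The calcium-stimulated cyclases are best known from neurons and, for Adcy3, from the olfactory epithelium and primary cilia. Adcy1 read 7.06 and 6.67 in Control and 6.49, 7.49 and 7.48 in NT-3N, with a difference of 0.29 (SE 0.337) that ran from 0.10 with Control replicate 2 left out to 0.62 with NT-3N replicate 1 left out. It was 0.49 with Control replicate 1 left out, and 0.12 and 0.13 with NT-3N replicate 2 and 3. As in Adcy2, replicate 1 was the lowest array and the other NT-3N arrays the highest. The dimmer Adcy1 probe showed the same order of NT-3N arrays, at 4.66, 5.71 and 5.65 against 5.43 and 5.52 in Control, and its mean difference had the opposite sign, -0.14 (SE 0.351). Adcy3 read 5.66 and 5.95 in Control and 5.25, 5.68 and 6.07 in NT-3N, which overlapped, with a difference of -0.14 (SE 0.28) that turned to 0.07 without NT-3N replicate 1. With Control replicate 1, Control replicate 2 or NT-3N replicate 3 left out it was -0.29, 0.01 and -0.34. For Adcy8 only Control replicate 2 was well above background, in 1 of its 2 probes, at a log2 signal of 4.63 against 2.37 on the other Control array and 3.02, 2.94 and 1.67 in NT-3N. The other Adcy8 probe was well above background on 0 of 5 arrays, and Adcy8 was not tested.

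**Figure D2:**
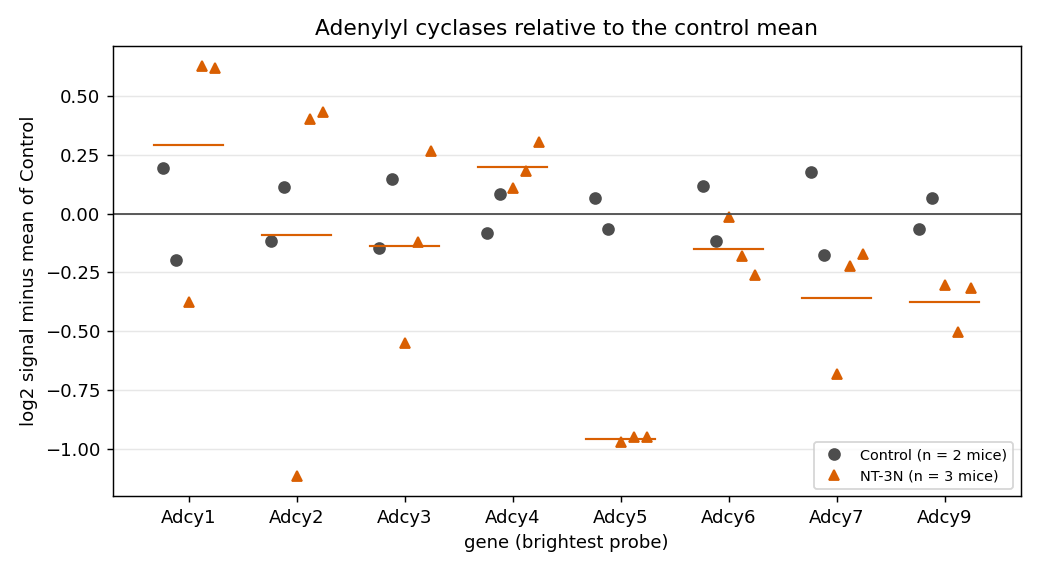
Log2 signal of the brightest probe of each tested adenylyl cyclase minus the mean of the 2 Control arrays (vertical axis), by gene (horizontal axis). Each point is 1 mouse and the bar is the NT-3N mean. Adcy5 lies near -0.96 on all 3 NT-3N arrays, Adcy9 lies below and Adcy4 above both Control arrays, and NT-3N replicate 1, the first triangle of each gene, is far below the other NT-3N arrays for Adcy1, Adcy2, Adcy3 and Adcy7.

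Whole colon holds many cell types, and in such bulk tissue fewer cells of a type and less RNA per cell cannot be told apart. Of 15 epithelial markers, 14 were tested and all 14 were well above background on every array, which fits the tissue label. Their median log2 difference was -0.03. All 12 smooth muscle markers, which include Acta2, Actg2, Myh11 and Des, were also well above background on every array. All 12 had lower means in NT-3N, by 0.15 log2 units for Kcnmb1 up to 0.89 for Myocd, the coactivator that drives smooth muscle genes. For 9 of them the arrays did not overlap, beside 14.8% of all features in the lower direction. None (0) passed an adjusted p under 0.05 in limma. Their summed signal was 482900 to 499400 in Control and 350900 to 442500 in NT-3N.

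Adcy5, Adcy9 and the mean of the 12 smooth muscle markers were each lower on all 3 NT-3N arrays, as were 14.8% of all features. Among those 3 arrays they did not rank alike. The marker mean was lowest on NT-3N replicate 1 (12.52) and Adcy9 on NT-3N replicate 2 (10.63), and Adcy5 was nearly equal on all 3. Acta2, Synpo2 and Kcnmb1, taken singly, overlapped between the groups. The mean log2 signal of the 12 markers was 13.15 in Control and 12.72 in NT-3N, a difference of -0.43, which is larger than that of Adcy9 and smaller than that of Adcy5. Myocd, at -0.89, Smtn, at -0.88, and Lmod1, at -0.84, came closer to Adcy5. Taken relative to the marker mean of the same array, a scale chosen after the values were seen, Adcy5 was at -3.23 and -3.42 in Control and -3.67, -3.97 and -3.91 in NT-3N. On that scale the arrays of Adcy5 again did not overlap, with a difference of -0.53, and those of Adcy9 did, at 0.06. Adcy6, Adcy7, Adcy2 and Adcy3 also overlapped, at 0.28, 0.08, 0.34 and 0.30. Adcy4 and Adcy1 were higher without overlap, at 0.63 and 0.72. Which cells of the colon carry each cyclase was not measured, and the part of smooth muscle in these differences was not tested.

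**Figure D3:**
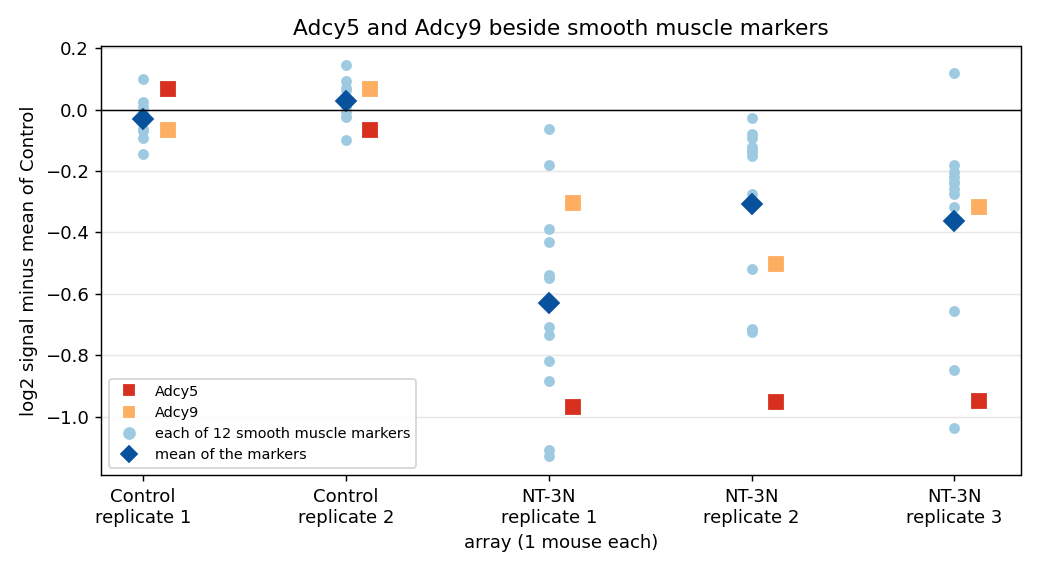
Log2 signal minus the mean of the 2 Control arrays (vertical axis) on each array (horizontal axis) for Adcy5, Adcy9, each of 12 smooth muscle markers and the mean of those markers. On the NT-3N arrays Adcy9 lies among the markers, and Adcy5 lies below their mean on each of the 3 arrays.

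Markers of other cell types also differed, some between the groups and some on single arrays. In the enteric neuron and glia list limma called 1 of 12 markers at an adjusted p under 0.05. It was Gfap, higher by 1.84 (SE 0.133), while 9 of the 12 had lower means in NT-3N. Single markers of lists whose means overlapped also parted without overlap. Among them were Pdpn of fibroblasts (1.49), Mrc1 of macrophages (0.53), and the epithelial Slc26a3 (0.53) and Cdx2 (-0.46). The mean log2 signal of 5 neutrophil markers was 6.93 in Control and 8.40 in NT-3N with no overlap, a difference of 1.47. S100a8 and S100a9, each well above background on 3 of 5 arrays, lay higher on all 3 NT-3N arrays, and the other 3 markers had lower means in NT-3N. The summed signal of the neutrophil list, which its bright markers dominate, overlapped, at 77470 to 78600 in Control and 64440 to 77980 in NT-3N. The mean of 6 B cell markers was 7.64 and 8.85, a difference of 1.21, also without overlap, while their summed signal overlapped (1138 to 4653 and 4382 to 5182). Of these 6, only Ms4a1, at 3.655, was itself higher without overlap, and Pax5 had a lower mean in NT-3N, at -0.23. The mean of 3 skeletal muscle markers was 9.38 and 9.09, a difference of -0.29 without overlap, with Tnnt3 overlapping at 0.044. NT-3N replicate 1, on which Adcy1, Adcy2, Adcy3 and Adcy7 were lowest, also had the lowest summed signal of several marker lists. These were smooth muscle (350900), fibroblast (60520 against 66010 to 90470 on the other 4 arrays), interstitial cells of Cajal (16340 against 18840 to 26480), macrophage (8213 against 9369 to 11540), enteric neuron and glia (8098 against 11000 to 12750) and skeletal muscle (2608 against 3351 to 3852). The same array had the highest summed signal of the epithelial (1481000 against 1356000 to 1472000), small intestine (133500 against 67220 to 111600) and T cell (3805 against 2732 to 3389) lists. Pancreas markers summed to 26110 on Control replicate 1 and 2061 on NT-3N replicate 1, and to at most 230.3 on the others. B cell markers summed to 1138 on Control replicate 2 and to at least 4382 on the others. With Control replicate 1 left out, the difference was -0.90 for Adcy5 and -0.44 for Adcy9. With NT-3N replicate 1 left out, it was -0.96 and -0.41. The part of any of these cell types in the cyclase values was not tested.

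Of 16736 other features with a symbol and a signal well above background on all arrays, those whose values over the 5 arrays lay nearest to Adcy5, after each was centred on its own mean, were Cfap97d2, Megf10, Carmn, Lin7b and Asb2. Their root mean square differences from Adcy5 were 0.073, 0.0743, 0.0814, 0.0867 and 0.0882 log2 units. The nearest, Cfap97d2, read 6.627 and 6.385 in Control and 5.577, 5.408 and 5.507 in NT-3N. Megf10 read 5.34 and 5.159 in Control and 4.477, 4.375 and 4.376 in NT-3N. Lin7b read 6.401 and 6.31 in Control and 5.514, 5.427 and 5.267 in NT-3N. Carmn, a long noncoding RNA known from smooth muscle, read 13.63 and 13.66 in Control and 12.79, 12.68 and 12.61 in NT-3N. Asb2, a subunit of a ubiquitin ligase known from muscle, read 9.37 and 9.23 in Control and 8.11, 8.35 and 8.37 in NT-3N. All 5 were lower in NT-3N by the way they were picked, with differences between -1.02 and -0.84. Among the cyclases Adcy9 was nearest to Adcy5, at 0.307, and Adcy1 farthest, at 0.712.

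The rest of the cAMP pathway was followed through 103 genes in 8 lists, of which 92 were tested. No pathway gene (0) passed an adjusted p under 0.05 in limma, with the smallest at 0.111. At an unadjusted p under 0.05, 7 were higher and 11 lower in NT-3N, that is 7.61% and 12% of the tested genes beside 4.95% and 4.67% of all features. Their arrays did not overlap for 10 genes in the higher and 21 in the lower direction, 10.9% and 22.8% beside 13.5% and 14.8% of all features. The median log2 difference was -0.05. The unadjusted counts were 10 and 13, 2 and 11, and 1 and 7 in the fits that left out NT-3N replicate 1, 2 and 3. The share over all features was not taken for these fits. The fits that left out a Control array were run, but each rests on 1 Control array, so their unadjusted counts are not read here. How far the larger number of lower genes depends on either Control array therefore cannot be said. The spread between mice that the p-values measure rests on 5 arrays. All pathway genes named from here on missed the adjusted threshold.

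Among receptors that act through Gs, 21 of 25 were tested, and at the unadjusted threshold 4 were lower and 0 higher. Adrb1 and Adrb3, the beta-adrenergic receptors best known from heart and from fat and smooth muscle, were 2 of the 4. Adrb3 read 8.37 and 8.28 in Control and 7.90, 7.71 and 7.75 in NT-3N, a difference of -0.54 (SE 0.124, adjusted p 0.258), and its other probe gave -0.53. Adrb1 read 7.26 and 7.31 in Control and 6.41, 6.61 and 6.88 in NT-3N, a difference of -0.65 (SE 0.178, adjusted p 0.343). The remaining pair were Glp2r, the receptor of the gut growth peptide GLP-2, at -0.81 (adjusted p 0.427; -0.53 without NT-3N replicate 1; -0.36 for its other probe), and Pth1r, the receptor of parathyroid hormone, at -0.50 (adjusted p 0.439). The VIP receptor Vipr1 differed by 0.10 and its relative Vipr2 by -0.44 (adjusted p 0.561).

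All 7 G protein alpha subunits were tested, and at the unadjusted threshold 1 was higher and 2 lower. Gnas, the Gs subunit itself, differed by -0.004 (SE 0.0955) and Gnai2 by -0.06 (SE 0.0717). Gnal, the Gs-like subunit known from the olfactory system and the striatum, read 8.53 and 8.70 in Control and 9.17, 9.21 and 9.17 in NT-3N, a difference of 0.57 (SE 0.109, adjusted p 0.187). The inhibitory subunits Gnai1 and Gnao1 differed by -0.44 (adjusted p 0.498; -0.27 with NT-3N replicate 1 left out) and -0.33 (adjusted p 0.447), and all 3 Gnao1 probes had lower means in NT-3N.

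**Figure D4:**
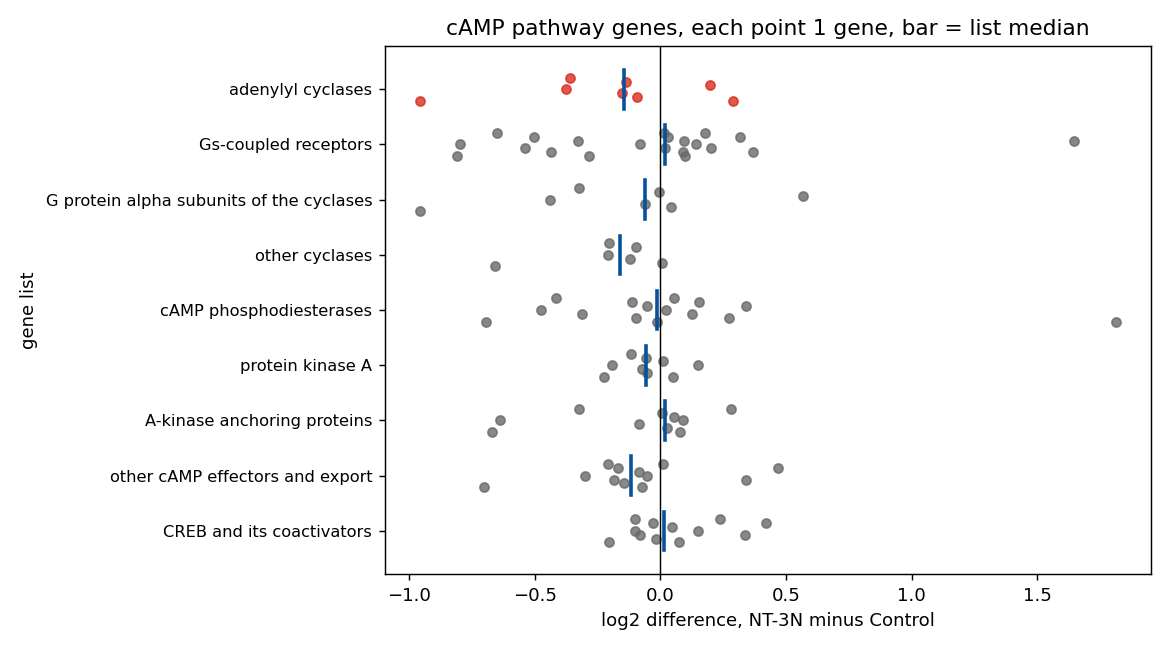
Log2 difference, NT-3N minus Control (horizontal axis), of each tested gene of the adenylyl cyclases and of 8 lists of the cAMP pathway (vertical axis). Each point is 1 gene and the bar is the median of its list. The medians of the 8 lists lie between -0.16 and 0.02, and Pde4b, at 1.81, is the point farthest from 0.

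Of the cAMP phosphodiesterases 15 of 16 were tested, and at the unadjusted threshold 2 were higher and 2 lower. Pde4b, a cAMP-specific form that cAMP and inflammatory signals are known to induce, read 5.36 and 7.32 in Control and 7.47, 8.62 and 8.37 in NT-3N. Its difference was 1.81 (SE 0.602, adjusted p 0.432), and its other probe gave 1.26. The Control arrays lay far apart: leaving out the first gave a difference of 0.84 and leaving out the second 2.79. A local-pooled-error test, the kind the study's methods name, called it with an adjusted p of 0.00349. That test takes its spread from features of like signal, so the gap between the Control arrays of Pde4b hardly enters it. In the simulations described below, which used limma's variance model, 52.4% of its calls were false. Pde7a was at 0.27 (adjusted p 0.496) with its other probe at 0.18. Pde2a, which cGMP activates, and Pde10a, which is abundant in the striatum, had differences of -0.48 (adjusted p 0.417; -0.29 with Control replicate 2 left out) and -0.69 (adjusted p 0.453).

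Among the readers of cAMP, Popdc2 had the smallest p of the whole pathway. It belongs to the Popeye proteins, which bind cAMP in muscle membranes, and read 10.20 and 10.40 in Control and 9.60, 9.64 and 9.56 in NT-3N, a difference of -0.70 (SE 0.107, unadjusted p 0.000478). The exporter Abcc4, which moves cAMP out of cells, was at 0.47 (adjusted p 0.45). Of 9 protein kinase A genes 1 was below the unadjusted threshold, the catalytic subunit Prkaca at -0.19 (-0.02 for its other probe). Like several other genes of these lists, Prkaca is named here outside the naming rule. Of 10 tested anchoring proteins of that kinase, Akap6, a scaffold of muscle and neurons, was at -0.64 (adjusted p 0.348) with its other probe at -0.55, and Akap1 of the mitochondrial surface was at 0.28 (adjusted p 0.492; 0.17 with Control replicate 2 left out) with its other probe at 0.11.

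CREB and its partners carry the cAMP signal to genes, and all 12 were tested, with 2 higher and 0 lower at the unadjusted threshold. Creb1 differed by -0.08. Crem, whose short forms are induced by cAMP and block CREB, was at 0.42 (adjusted p 0.455; 0.27 with Control replicate 1 left out), with its other 3 probes between -0.05 and 1.80. The coactivator Crtc3 was at 0.34 (adjusted p 0.493). Of the other cyclases, 6 of 7 were tested, and 0 passed the unadjusted threshold in limma. The soluble adenylyl cyclase Adcy10 was at -0.66 but was well above background on 2 of 5 arrays. The guanylyl cyclase Gucy2c, the epithelial receptor of guanylin, differed by 0.01.

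**Figure D5:**
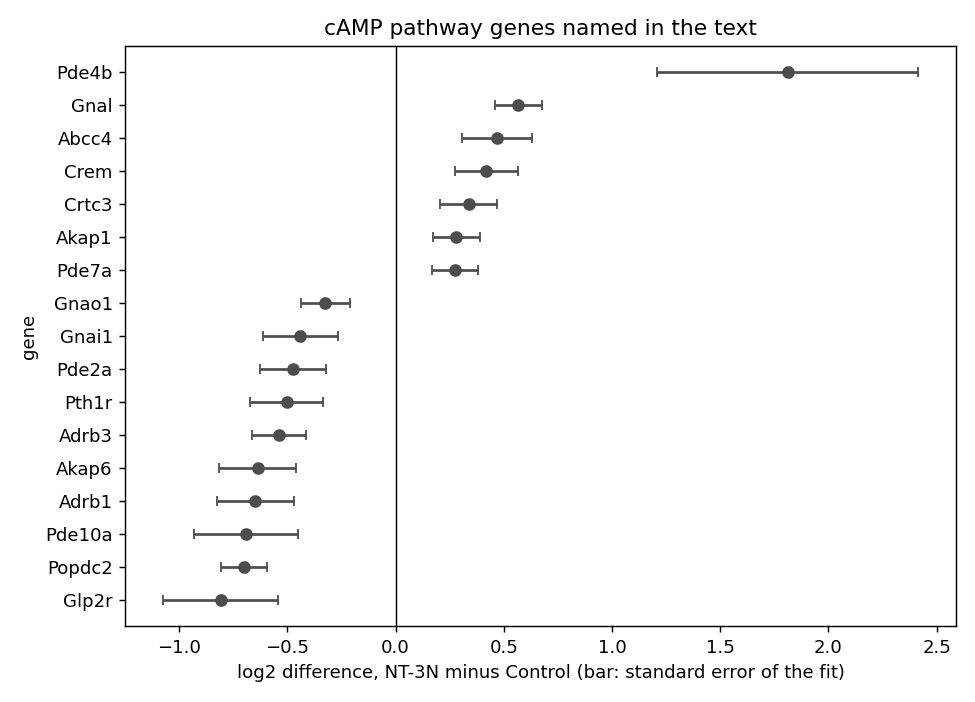
Log2 difference, NT-3N minus Control (horizontal axis), of the 17 cAMP pathway genes named by rule (vertical axis), with bars of 1 standard error of the limma fit. The 7 genes above 0 run from Pde7a at 0.27 to Pde4b at 1.81, and the 10 below 0 from Gnao1 at -0.33 to Glp2r at -0.81.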

How the data were processed

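Colon RNA of 5 mice (Control n = 2, NT-3N n = 3) was hybridised to 1-colour Agilent arrays on 1 slide with 1 scan time. Per the submitters' processing notes, the authors used Agilent Feature Extraction 11.0.1.1, and the deposited intensity of each spot is the processed, background-corrected signal, not scaled between arrays. The authors also deposited log2 values of 37380 probes, which were quantile-normalized (correlation with the scanner values at least 0.99998, median 8.473 on each array) and served as an alternative.

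Control spots and spots flagged as outliers (69 to 184 of 59305 an array) were left out. Saturated spots numbered 0, the median processed signal was 92.3 to 115.8, and 70.6% to 73.1% of 56605 probes were well above background. Processed intensity was log2-transformed, averaged by probe and quantile-normalized. Probes well above background on at least 2 arrays were kept. Accessions were matched to RefSeq symbols (GRCm38.p6), which named 32994 probes, and 17945 of 32917 features had a symbol. The array design refers to another build, so array coordinates are not used here. A gene had its brightest probe.

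The comparison of NT-3N with Control used limma 3.58.1 under R 4.3.3 (lmFit, eBayes with an intensity trend, two-sided, Benjamini-Hochberg over all features). A local-pooled-error test, named in the study's methods, was an alternative. Every cyclase was named. A pathway gene was named at an adjusted p under 0.05 or, among those at an unadjusted p under 0.05, well above background on all 5 arrays and without overlap of groups, if it was among the 10 with the largest rise or the 10 with the largest fall. Outside this rule, Vipr1, Vipr2, Gnas, Gnai2, Prkaca, Creb1, Adcy10 and Gucy2c were also named. The 5 features nearest to Adcy5 were named as well. The members and lists were chosen with earlier results of these data known. Alternatives covered scaling, background correction, filter, variance model, probe rule, test and each array left out.

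Simulations of Control against NT-3N held 32910 features, 200 of them changed, in 5 runs. Limma found 73.6% of the changes of 4-fold and 33.2% of those of 2-fold, with 4.83% of calls false. The local-pooled-error test found 82.6% and 43.2%, with 52.4% false. The spread of each feature was drawn from the variance model that limma had fitted to these arrays, with independent normal noise. The shares of false calls hold under that model only, which favours limma. Differences shared by many genes of a mouse were not simulated. An exact two-sided permutation test of 2 against 3 arrays reaches p = 0.1 at the lowest. Precision is limited by how few arrays there are.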

Additional observations from a re-analysis of the deposited data

How the results depend on the processing

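The log2 difference of Adcy5 lay between -1.02 and -0.89 under 17 alternatives and was -0.53 relative to the smooth muscle markers, a further alternative chosen after seeing the data. The count of called cyclases was 1, Adcy5, and stayed 1 under 8 alternatives. It was 0 with normexp background correction, with no filter on dim probes, with no intensity trend, with the replicate block and under the local-pooled-error test, and between 0 and 0 when each array was left out. The cause was not tested. The replicate block gave Adcy5 a difference of -0.96. Deviations of same-numbered arrays correlated at 0.129 and 0.0357 over 2 pairs. Both values rest on the same difference between the 2 Control arrays, so this check cannot exclude pairing. The sample titles name no pairs, and the numbers were not taken as pairs. The count of pathway genes called higher was 0, and 1 (Pde4b) under the local-pooled-error test. The count called lower was 0 under all 18 alternatives. The 17 named pathway genes kept their sign under all 18 alternatives. Of the same 18 alternatives, Adcy2 changed sign under 5 and Adcy3 under 2, and the other tested cyclases under 0. Relative to the smooth muscle markers, Adcy2, Adcy3, Adcy6, Adcy7 and Adcy9 changed sign. Over all features the calls were 0 in either direction with the replicate block, 2 higher and 0 lower with no filter or with no intensity trend, 124 higher and 46 lower with array weights, and 187 higher and 154 lower under the local-pooled-error test. Without NT-3N replicate 2 they were 1 and 0, and without NT-3N replicate 3 they were 0 and 0. Blocks for slide and scan were not run, because all arrays shared 1 slide and 1 scan time. The normexp correction was run on the median spot signal. With 2 against 3 mice, small differences cannot be separated from the spread between mice.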
